A study of Mus musculus with 4 samples.

Results

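The DNA around Foxp3 was examined for open chromatin outside the gene and its promoter, in mouse CD4+ T cells driven towards the Treg fate for 48 h, either with IL-4 or with PBS in its place. Members were all ATAC-seq peaks within 50 kb of the RefSeq record of Foxp3 (GRCm38/mm10, chrX:7579676-7595243, forward strand) that touched neither the gene nor the 1 kb before its start. This left 99000 bases, chrX:7529676-7578675 upstream and chrX:7595244-7645243 downstream. They held 31 of the 280122 peaks in the lists of the 4 libraries, and these merged into 9 of 93679 regions when peaks sharing at least 1 base were joined. Of the 9 regions, 5 lay upstream (18 peaks) and 4 downstream (13 peaks). Each region is named here by the distance of its centre from the RefSeq start of Foxp3.

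Foxp3 encodes the transcription factor that defines regulatory T cells, and its transcription depends on conserved noncoding sequences (CNS). CNS1, CNS2 and CNS3 lie inside the gene. CNS0 is an enhancer upstream of it, known as a site where the chromatin organizer Satb1 and the histone methyltransferase Kmt2d act in Treg precursors in the thymus, and as a site through which IL-2 and Stat5 promote Foxp3 induction. It lies inside the neighbouring gene Ppp1r3f, which encodes a targeting subunit of protein phosphatase 1 and is transcribed in the opposite direction.

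Both conditions started from naive CD4+ T cells of the spleens of wild-type C57BL/6 male mice, 7 weeks old by the labels, sorted as high in CD62L, low in CD44 and CD25-. The cytokines common to all cultures were IL-2 at 10 ng/ml and TGF-β1 at 5 ng/ml, over plate-bound anti-CD3 at 5 µg/ml and soluble anti-CD28 at 1 µg/ml, so no culture was left without the Treg stimulus. The iTreg+PBS cells received no IL-4 (2 libraries), and the iTreg+IL-4 cells received 15 ng/ml (2 libraries). The study describes the samples as biologically independent pools, so a library is a pool and not 1 mouse. A culture is also a mixture, and fewer cells with an open site cannot be told apart from a site that is less open in each cell.

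ATAC-seq inserts sequencing adapters with a transposase where DNA is accessible. For each peak the lists gave bounds and a pair of values, taken here to be the −log10 q of the peak and the height of its pileup, which is not scaled for depth. The depth is unknown, so the strength of a peak was given as its rank, the percentage of peaks of the same list with a higher value. A low percentage is a strong peak. The lists held 56645 to 78670 peaks, the shortest being that of iTreg+PBS replicate 2. Start sites of the 7 CD4 T cell markers (Cd3d, Cd3e, Cd3g, Cd4, Cd5, Lck and Cd28) held a peak in all 4 libraries. Of the markers of other cells, Cd8b1 and Pax5 held one in all 4 libraries, Cd8a, Ms4a1 and Itgam in some, and Csf1r, Lyz2 and Ncr1 in none. The part of other cells in the flank peaks was not tested.

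**Figure D1:**
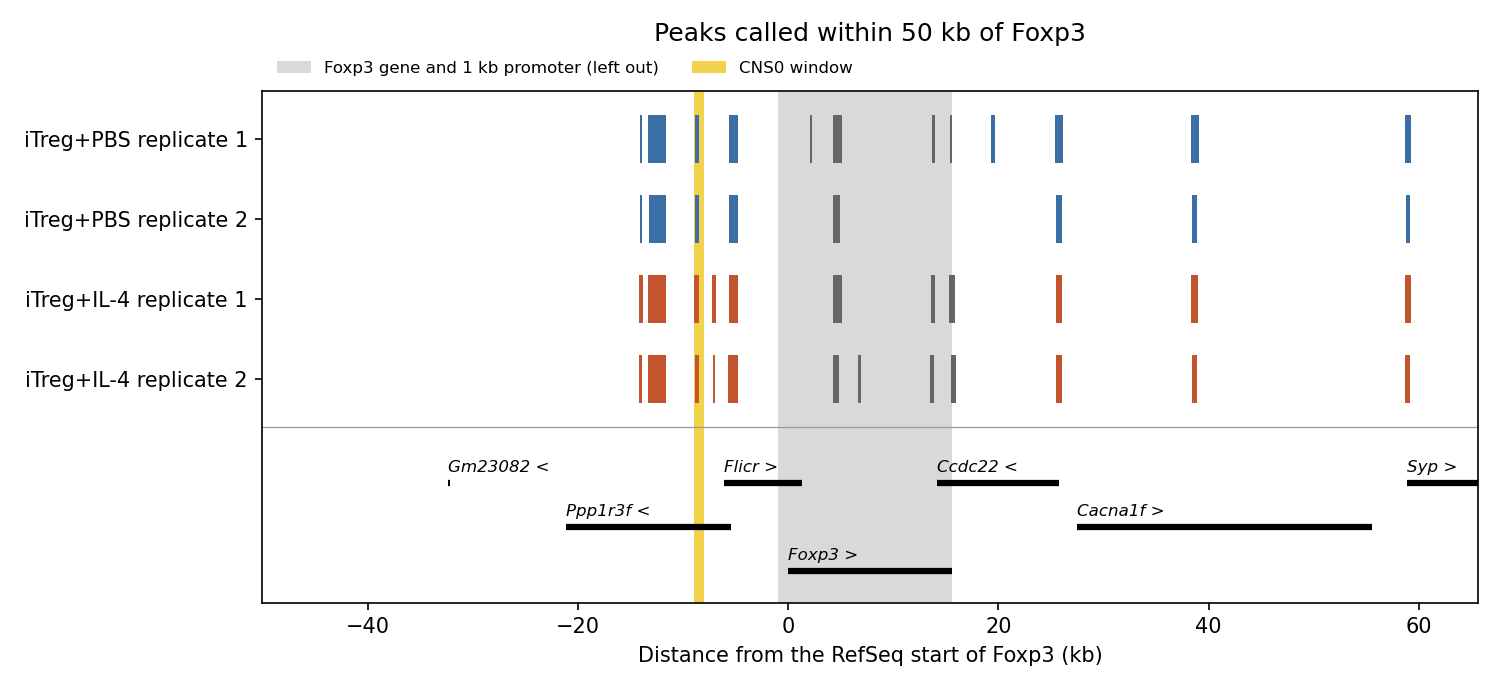
Peaks called in each library against the distance from the RefSeq start of Foxp3 (kb). Blue and orange bars are flank peaks without and with IL-4, grey bars are peaks touching the gene, which were left out, and black lines are RefSeq genes with their direction. The 5 upstream regions crowd between 14193 and 4750 bases before the start, and the region 7.0 kb upstream has a bar in the IL-4 libraries only.

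The sequences of the upstream regions that carry the results are shown first. They are the central 300 bases common to the 4 CNS0 peaks (chrX:7570858-7571157), the 219 bases common to the peaks of the region called only with IL-4 (chrX:7572533-7572751), and the 171 bases common to the peaks of the outermost upstream region (chrX:7565565-7565735), all on the forward strand of GRCm38 from the RefSeq assembly. The promoter of Ppp1r3f (RefSeq, GRCm38.p6, chrX:7574232-7574531, reverse strand) is shown because it lies in the strongest region of the flanks. Capitals mark matches to any of 7 short motifs, searched on both strands. The STAT5 type was TTCNNNGAA, and the STAT6 type had the same arms with 4 bases between them. The AP-1 motif was TGANTCA, the forkhead motif was GTAAACA and the Runx motif was TGTGGTT. The GATA motif was AGATAA, and the core of NFAT sites was GGAAA.
CNS0, 8.7 kb upstream: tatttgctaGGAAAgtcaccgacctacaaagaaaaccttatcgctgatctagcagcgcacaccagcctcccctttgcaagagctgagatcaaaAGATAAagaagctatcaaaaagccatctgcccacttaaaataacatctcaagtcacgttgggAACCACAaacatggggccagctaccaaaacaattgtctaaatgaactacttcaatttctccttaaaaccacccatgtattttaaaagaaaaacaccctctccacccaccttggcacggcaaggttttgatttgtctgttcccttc
Region 7.0 kb upstream: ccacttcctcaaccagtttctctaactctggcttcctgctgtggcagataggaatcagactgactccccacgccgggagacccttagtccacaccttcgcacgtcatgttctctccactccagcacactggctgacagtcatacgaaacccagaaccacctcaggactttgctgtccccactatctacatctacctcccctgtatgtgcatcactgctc
Region 14 kb upstream: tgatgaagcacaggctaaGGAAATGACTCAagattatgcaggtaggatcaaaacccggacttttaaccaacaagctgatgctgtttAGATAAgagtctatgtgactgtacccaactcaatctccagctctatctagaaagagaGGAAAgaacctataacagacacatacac
Promoter of Ppp1r3f: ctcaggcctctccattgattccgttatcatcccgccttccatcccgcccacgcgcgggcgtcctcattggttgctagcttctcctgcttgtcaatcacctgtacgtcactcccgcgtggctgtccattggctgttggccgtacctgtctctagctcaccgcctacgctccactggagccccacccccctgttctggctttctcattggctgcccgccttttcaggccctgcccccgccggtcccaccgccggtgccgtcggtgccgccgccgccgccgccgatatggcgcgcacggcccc

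The CNS0 stretch held 3 matches: GGAAA at position 10, AGATAA at position 94 and AACCACA, the reverse complement of the Runx motif, at position 156, counted from its first base. The outermost stretch held 4, with GGAAA at position 19 running directly into the AP-1 match TGACTCA at position 24, then AGATAA at position 87 and GGAAA at position 144. The stretch called only with IL-4 and the promoter of Ppp1r3f held none. In the central 200 bases of the 9 regions, the Runx motif stood in 2 (CNS0 and the region 38.7 kb downstream) against 8.93% of 93503 regions on the assembled chromosomes, and the GATA motif in 2 (CNS0 and the region 14 kb upstream) against 7.86%. AP-1 stood in 2 against 12.9%, the STAT5 type in 1 (12.5 kb upstream) against 8.47%, and the NFAT core in 5 against 47.6%. The STAT6 type (5.84% of all regions) and the forkhead motif (2.52%) stood in none of the 9. A match describes letters only, and a window without one says nothing of the factor.

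CNS0 was open in all 4 libraries. The window from 8 to 9 kb upstream of the start, chrX:7570676-7571676, held exactly 1 peak in each list. In iTreg+PBS cells the peak ran over chrX:7570812-7571229 in replicate 1 and chrX:7570820-7571199 in replicate 2. In iTreg+IL-4 cells it ran over chrX:7570763-7571225 and chrX:7570775-7571194. The peaks shared 375 bases, chrX:7570820-7571194, which is 80.3% of the 467 bases they covered together. The starts differed by 57 bases at most and the ends by 35, against medians of 90 for each over 45175 regions with 1 peak in every library, where the shared stretch had a median of 67.3%. Both ends of CNS0 thus varied less than the median. All 467 bases lay in intron 1 of Ppp1r3f (RefSeq), with 0 in an exon.

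The CNS0 peak ranked higher in both IL-4 libraries than in either PBS library. Its −log10 q was 23.43 and 13.59 in iTreg+PBS replicates 1 and 2, and 35.39 and 28.72 in iTreg+IL-4 replicates 1 and 2. By this value 51.7% and 53.3% of the list stood above it without IL-4, against 39.7% and 43.1% with IL-4. As places in the lists, these were 39852 of 77064 and 30166 of 56645 in the PBS libraries, and 31195 of 78670 and 29224 of 67743 in the IL-4 libraries. The groups did not overlap. The mean of iTreg+PBS was 52.5% ± 1.09 and that of iTreg+IL-4 was 41.4% ± 2.47 (SD, n = 2 each), a difference of −11.1 percentage points. This exceeded the pooled SD of the replicates, 1.91 points. The exact permutation test over libraries, two-sided, gave p = 0.333, the smallest value that 2 libraries against 2 allow. A more negative difference was seen in 12.01% of the 47767 regions called in all 4 libraries.

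By height the same order held over a smaller distance. The heights were 158 and 79 in the PBS libraries and 187 and 151 in the IL-4 libraries. In the lists, 21.4% and 23.5% of peaks were higher without IL-4, against 17.2% and 18.2% with IL-4. The difference in mean rank was −4.79 points (exact permutation test, two-sided, p = 0.333), and 30.2% of regions called in all 4 libraries had a more negative one. When the ranks were taken among those shared regions alone, 76.7% and 62.2% stood above CNS0 without IL-4, against 63.1% and 60.1% with IL-4. The difference was −7.87 points and the groups overlapped (exact permutation test, two-sided, p = 0.667). Here iTreg+PBS replicate 2 lay close to both IL-4 libraries. When only the 50% of peaks with the highest −log10 q were kept in a list, the CNS0 peak was kept in both IL-4 libraries and in neither PBS library. This restates the ranks by −log10 q in the whole lists, which lay on either side of 50%, and adds nothing to them.

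The height of CNS0 was also set against 3 yardsticks of the same library. Relative to the peak at the start of Ppp1r3f it was 0.374 and 0.416 in the PBS libraries and 0.592 and 0.490 in the IL-4 libraries, a difference of 0.146 without overlap (exact permutation test, two-sided, p = 0.333). Such an order was common, since 32.8% of regions called in all 4 libraries had a higher height over that peak in both IL-4 libraries, and the regions 14 kb upstream and 59.0 kb downstream had it too. Relative to the median height of the list it was 2.98 and 2.47 in the PBS libraries and 3.67 and 3.43 in the IL-4 libraries. Relative to the CNS2 peak in intron 1 of Foxp3, CNS0 was 2.87 and 4.65 times as high without IL-4 against 3.28 and 4.72 times with IL-4, where the groups overlapped (exact permutation test, two-sided, p = 0.667). CNS0 stood above CNS2 in height in every library. By −log10 q it stood below CNS2 in iTreg+PBS replicate 1 (23.43 against 26.37) and above it in the other libraries.

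**Figure D2:**
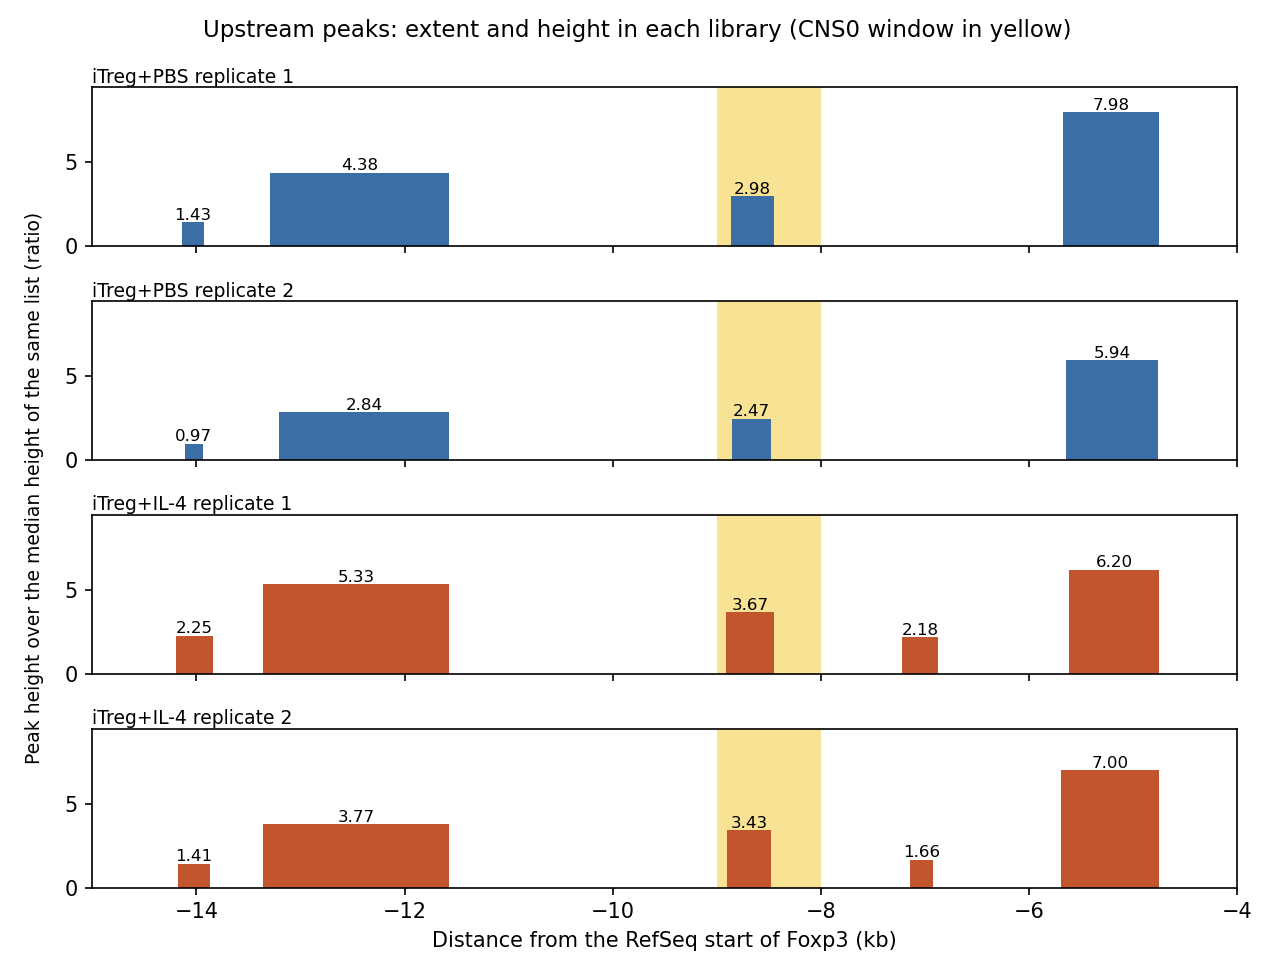
Extent of each upstream peak (x axis, kb from the RefSeq start of Foxp3) and its height divided by the median height of its list (y axis, ratio) in the 4 libraries. The CNS0 bars reach 2.98 and 2.47 without IL-4 against 3.67 and 3.43 with IL-4, and a bar 7.0 kb upstream, 2.18 and 1.66 high, is seen with IL-4 only.

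Between CNS0 and the promoter of Ppp1r3f, 1 region was called in both IL-4 libraries and in neither PBS library. This region, chrX:7572452-7572805, lay 7.0 kb upstream of the Foxp3 start in intron 1 of Ppp1r3f (RefSeq), just inside a further start site of Ppp1r3f that GENCODE places at 7572843. In iTreg+IL-4 replicate 1 the peak covered all 354 bases, with a −log10 q of 12.02 and a height of 111. In replicate 2 it covered chrX:7572533-7572751 (219 bases), with a −log10 q of 3.85 and a height of 73. By height 27.6% and 33.8% of the lists stood above it, whereas by −log10 q 67.1% and 93.1% did. It was thus a fairly high peak with a weak q-value. Of all merged regions 2.6% were called in both IL-4 libraries and neither PBS library, so 1 of 9 is a count of a single region. When every list was shortened to the same 56645 peaks by −log10 q, the peak of replicate 2 was lost and the count was 0, while by height it was 1.

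No flank region was called in both PBS libraries and neither IL-4 library (0.699% of all merged regions were). The region 19.5 kb downstream, chrX:7598982-7599360, was called in iTreg+PBS replicate 1 alone, as were 21.6% of all merged regions in a single library. It had a −log10 q of 3.95 and a height of 18, with 92.8% and 90.9% of that list above it, and it spanned exon 6 of Ccdc22 with parts of introns 5 and 6. Without iTreg+PBS replicate 2 it would count as 1 region called only without IL-4. The other 7 regions were called in all 4 libraries, 7 of 9 against 51% of all merged regions.

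The outermost upstream region, chrX:7565483-7565837 in intron 1 of Ppp1r3f, had the weakest peaks among the upstream regions called in all 4 libraries. Its bounds were chrX:7565541-7565746 and chrX:7565565-7565735 in iTreg+PBS replicates 1 and 2, and chrX:7565483-7565837 and chrX:7565501-7565801 in iTreg+IL-4 replicates 1 and 2. Its height was 76 and 31 in the PBS libraries and 115 and 62 in the IL-4 libraries. By −log10 q (12.95, 4.62, 27.68 and 10.92 in the same order) 67.1%, 84.7%, 45.3% and 69.8% of the list stood above it, so iTreg+PBS replicate 1 stood above iTreg+IL-4 replicate 2 and the groups overlapped. Its difference in mean rank, −18.4 points, was larger than that of CNS0 (exact permutation test, two-sided, p = 0.667). Its replicates spread far more widely than those of CNS0, with SDs of 12.4 points without IL-4 and 17.3 with IL-4. A more negative difference was seen in 3.30% of regions called in all 4 libraries. Among those shared regions, 89.7% and 92.4% stood above it without IL-4, against 70.4% and 87.5% with IL-4, without overlap (difference −12.1 points, exact permutation test, two-sided, p = 0.333). By height 38.5% and 50.8% of the lists stood above it in the PBS libraries and 26.8% and 38.5% in the IL-4 libraries. Here the first PBS library and the second IL-4 library stood side by side. The peak was 206 and 171 bases wide in the PBS libraries and 355 and 301 bases wide in the IL-4 libraries, without overlap.

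The region 12.5 kb upstream was the widest of the flanks. It covered chrX:7566312-7568104, again in intron 1 of Ppp1r3f. It began at 7566381 and 7566472 in the PBS libraries and at 7566312 and 7566314 in the IL-4 libraries. The peak ended at 7568104 in 3 libraries and at 7568102 in iTreg+PBS replicate 2, while its start varied over 160 bases. It was 1724 and 1631 bases wide in the PBS libraries and 1793 and 1791 in the IL-4 libraries. Heights were 232 and 91 without IL-4 against 272 and 166 with IL-4. The −log10 q was 101.35 and 36.09 in the PBS libraries and 117.74 and 66.08 in the IL-4 libraries. By −log10 q 21.8% and 29.3% of the lists stood above it without IL-4, against 18.1% and 25.2% with IL-4, a difference of −3.91 points with overlap (exact permutation test, two-sided, p = 0.667). Together with the outermost region and CNS0 (418 and 380 bases without IL-4, 463 and 420 with IL-4), this made 3 of 7 regions with both IL-4 peaks wider than both PBS peaks, against 22.5% of regions called in all 4 libraries.

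The strongest region of the flanks lay at the start of Ppp1r3f and within Flicr, a long noncoding RNA known to limit Foxp3 expression. It covered chrX:7573988-7574926, 5.2 kb upstream of the Foxp3 start, with bases of exon 1 of Ppp1r3f and of intron 1 of Flicr, of which GENCODE places a further start there at 7574492. In every library this was the first peak of the flanks by either value. Its bounds were chrX:7574006-7574921 and chrX:7574033-7574911 in iTreg+PBS replicates 1 and 2, and chrX:7574065-7574923 and chrX:7573988-7574926 in iTreg+IL-4 replicates 1 and 2. Heights were 423 and 190 in the PBS libraries and 316 and 308 in the IL-4 libraries. The −log10 q was 265.83 and 112.35 in the PBS libraries and 167.04 and 173.68 in the IL-4 libraries. Only 9.37% and 12.7% of the lists stood above it by −log10 q without IL-4, against 13.5% and 11.9% with IL-4. These ranks overlapped (difference 1.67 points, exact permutation test, two-sided, p = 0.667). Ranked among the regions called in all 4 libraries alone, they did not: 15.1% and 15.0% of those regions stood above it without IL-4, against 22.3% and 16.8% with IL-4 (difference 4.48 points, exact permutation test, two-sided, p = 0.333). In GENCODE a transcript of Foxp3 itself starts in this neighbourhood, at 7573644, 6032 bases before the RefSeq start, and with that gene record the regions 5.2 and 7.0 kb upstream fall to the gene and its promoter.

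The start of Ppp1r3f had a GC content of 63.5% and 81 CpG dinucleotides, 0.880 times the number its bases would give at random order. CNS0 had 43.3% GC, 6 CpG and a ratio of 0.294. Over their whole length the regions 14, 12.5 and 7.0 kb upstream had GC contents of 44.5%, 46.9% and 48.9% and CpG ratios of 0.233, 0.254 and 0.316. In the central 200 bases CNS0 had 41.5% GC, and 13.2% of all regions had less. There the regions 14 and 12.5 kb upstream had 42.5% and 43.5%, while the region 7.0 kb upstream had 53.5%, with 66.4% of all regions lower. Repeat-masked bases made up 5.78% of CNS0 and 18.3% of the region 12.5 kb upstream.

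Downstream, the peaks lay at the starts of other genes or inside them. The region 25.8 kb from the Foxp3 start, chrX:7605082-7605839, covered the start of Ccdc22, which encodes a subunit of a complex for endosomal recycling. Its bounds were chrX:7605082-7605839 and chrX:7605173-7605694 in iTreg+PBS replicates 1 and 2, and chrX:7605130-7605679 and chrX:7605165-7605745 in iTreg+IL-4 replicates 1 and 2. Heights there were 140 and 52 without IL-4 against 122 and 101 with IL-4, and by −log10 q 17.7% and 26.6% of the lists stood above it without IL-4, against 18.8% and 19.5% with IL-4. The −log10 q was 133.57 and 42.07 in the PBS libraries and 112.34 and 94.52 in the IL-4 libraries. The region 59.0 kb away, chrX:7638347-7638937, covered the start of Syp, the gene of the synaptic vesicle protein synaptophysin. Its bounds were chrX:7638356-7638937 and chrX:7638414-7638833 in iTreg+PBS replicates 1 and 2, and chrX:7638347-7638928 and chrX:7638390-7638864 in iTreg+IL-4 replicates 1 and 2. Its heights were 144 and 66 in the PBS libraries and 148 and 113 in the IL-4 libraries. The −log10 q was 132.21 and 59.43 in the PBS libraries and 131.68 and 103.67 in the IL-4 libraries. Of the lists, 17.9% and 21.1% stood above it without IL-4, against 16.6% and 18.2% with IL-4. In both regions the groups overlapped (exact permutation test, two-sided, p = 1 and 0.667).

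The remaining downstream region ranked lower with IL-4 on average. It covered chrX:7617985-7618783 around exon 18 of Cacna1f, which encodes a calcium channel subunit best known from the retina. Its bounds were chrX:7618031-7618783 and chrX:7618133-7618563 in iTreg+PBS replicates 1 and 2, and chrX:7617985-7618657 and chrX:7618075-7618593 in iTreg+IL-4 replicates 1 and 2. Heights were 67 and 24 without IL-4 against 50 and 27 with IL-4. By −log10 q 32.5% and 52.2% of the lists stood above it without IL-4, against 40.8% and 60.6% with IL-4, with overlap (difference 8.31 points, exact permutation test, two-sided, p = 0.667). Among the regions called in all 4 libraries, 51.8% and 61.1% stood above it without IL-4, against 64.6% and 79.9% with IL-4, without overlap (difference 15.8 points, exact permutation test, two-sided, p = 0.333). The −log10 q was 54.45 and 13.99 in the PBS libraries and 33.65 and 15 in the IL-4 libraries. In both conditions replicate 1 stood well above replicate 2. The start of Cacna1f held no peak in any library.

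Over the 7 regions called in all 4 libraries, CNS0 alone had both IL-4 ranks above both PBS ranks by −log10 q in the whole lists (19.7% of regions called in all 4 libraries did), and CNS0 alone by height (20.4% did). None had both PBS ranks above both IL-4 ranks by −log10 q in the whole lists, as 5.18% of regions called in all 4 libraries had. These counts depended on the reference. Ranked among the regions called in all 4 libraries alone, the region 14 kb upstream in place of CNS0 had both IL-4 ranks above (14.3% of such regions did), and 2 regions, 5.2 kb upstream and 38.7 kb downstream, had both PBS ranks above (12.7% did). The median difference of the 7 was −3.005 points, beside −2.05 over all 47767, and with the shared regions as reference the latter was 0.0283. With 7 regions, a share of 1 is near the background. The mean rank over the 7 was 35.6% ± 6.24 in the PBS libraries and 31.5% ± 5.61 in the IL-4 libraries (SD, n = 2 each). The difference of −4.07 points did not exceed the pooled SD of 5.94 points (exact permutation test, two-sided, p = 0.667). Without iTreg+PBS replicate 2 the difference was 0.343.

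**Figure D3:**
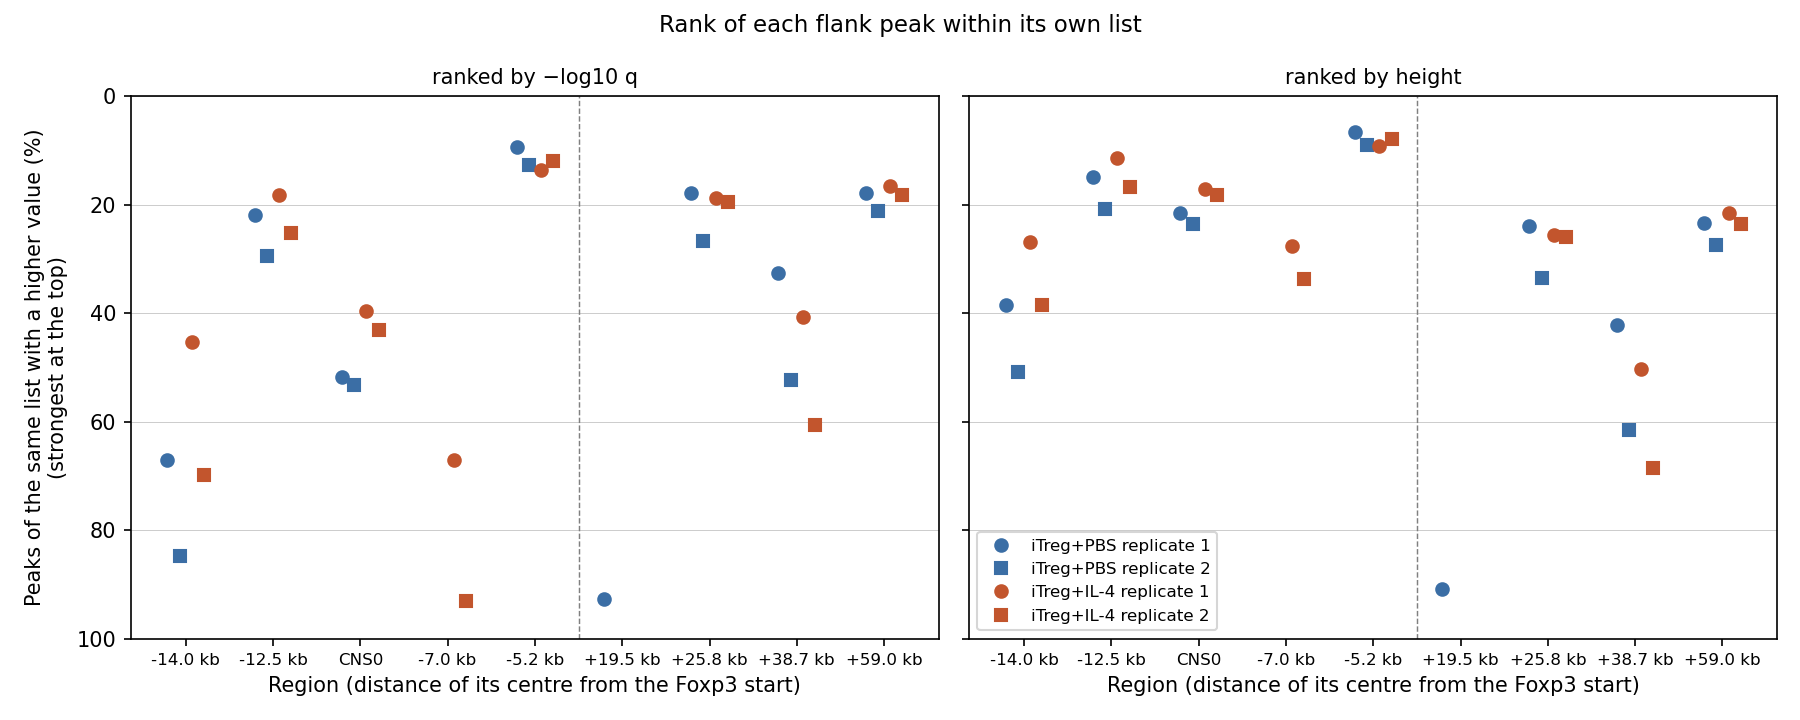
Rank of each flank peak in its own list, as the percentage of peaks with a higher −log10 q (left) or height (right), with strong peaks at the top. Regions run from 14 kb upstream (at the left) to 59.0 kb downstream of the Foxp3 start, points are libraries, and the dashed line stands for the gene. At CNS0 the IL-4 points (39.7% and 43.1% by −log10 q) stand above the PBS points (51.7% and 53.3%), and in the other 6 regions called in all 4 libraries the whole-list ranks of the conditions overlap.

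The upstream and the downstream peaks differed in how height and q-value went together. Each peak was compared with the peaks of its own list whose height was within 10% of its own. All 18 upstream peaks had a −log10 q below the middle of their like-height peaks, and only 0.130% to 14.7% of those had a lower value. For CNS0 this share was 1.91%, 1.90%, 2.196% and 1.66% in iTreg+PBS replicates 1 and 2 and iTreg+IL-4 replicates 1 and 2. The like-height peaks of CNS0 had medians of 108, 52.1, 127 and 107, against its own 23.43, 13.59, 35.39 and 28.72. The 12 downstream peaks called in all 4 libraries lay at the other end, with 75.0% to 96.6% of like-height peaks below them.

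This order was the same with and without IL-4. The number of other peaks within 10 kb also differed between the sides. It was 3 to 5 around each upstream peak, which lie close together and count each other, and 0 to 2 around the 12 downstream peaks. The median over each whole list was 1, and 16.3% to 25.7% of the peaks of a list had 3 or more. Among the upstream peaks the number did not follow the share. Those at the Ppp1r3f start had 4 or 5 neighbours and shares of 10.3% to 14.7%. Those of CNS0 had 3 or 4 neighbours and shares of 1.66% to 2.196%. The single peak 19.5 kb downstream had 3 such neighbours and 14.3% of like-height peaks below it. The part of neighbouring peaks in the q-values was not tested. A rank by −log10 q placed CNS0 in the middle of each list and a rank by height placed it among the upper 17.2% to 23.5%, and within the flanks CNS0 was the 3rd highest peak in every library but 6th by −log10 q in the PBS libraries and 5th in the IL-4 libraries.

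**Figure D4:**
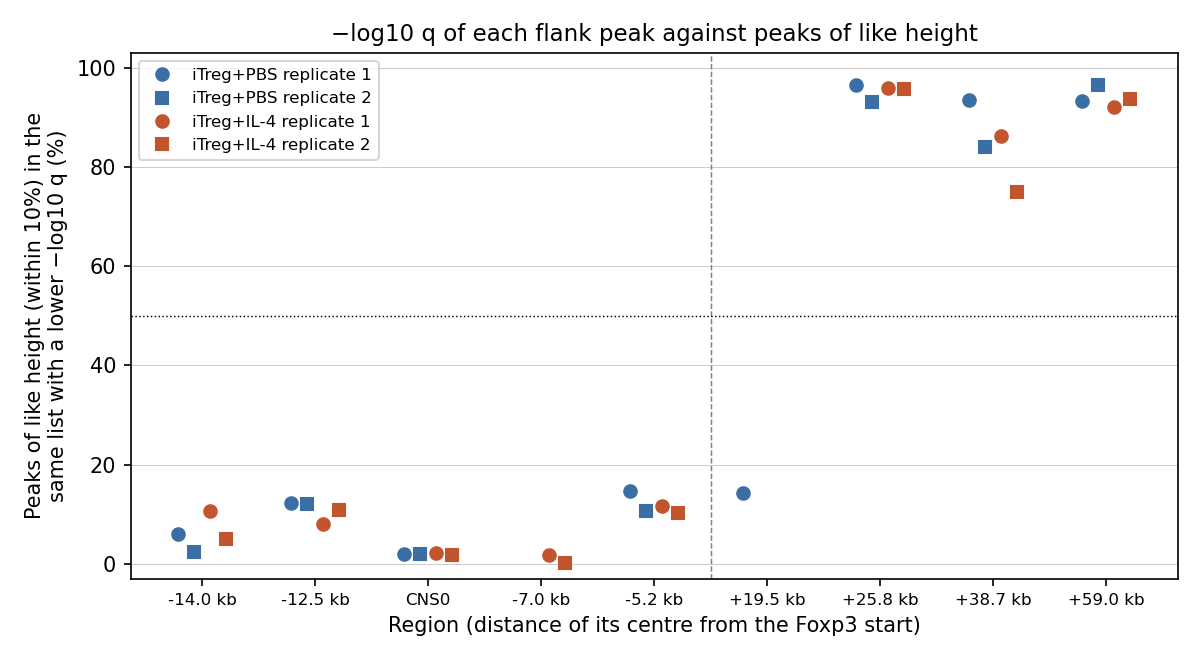
For each flank peak, the percentage of peaks of like height (within 10%) in the same list that had a lower −log10 q, by region and library. The dotted line marks 50%. The upstream points lie between 0.130% and 14.7%, and the points of the downstream regions called in all 4 libraries between 75.0% and 96.6%.

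Summed over the flanks, peaks covered 5785 and 4434 bases in the PBS libraries and 5927 and 5635 bases in the IL-4 libraries. The means, 5110 ± 955 and 5781 ± 206 bases (SD, n = 2), differed by 671.5 bases, less than the pooled SD of 691 bases (exact permutation test, two-sided, p = 0.667), and without iTreg+PBS replicate 2 the difference was −4 bases. The number of peaks was 8 and 7 without IL-4 against 8 and 8 with IL-4 (exact permutation test, two-sided, p = 1). Upstream, 3264 and 3061 bases lay in peaks without IL-4 against 3824 and 3670 with IL-4, without overlap (difference 584.5, exact permutation test, two-sided, p = 0.333). Leaving out the region called only with IL-4, the IL-4 values were 3470 and 3451, still above the PBS values. Downstream the values were 2521 and 1373 against 2103 and 1965 bases (exact permutation test, two-sided, p = 1).

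The CNS0 window itself held 418 and 380 bases in peaks without IL-4 against 463 and 420 with IL-4, a difference of 42.5 bases (exact permutation test, two-sided, p = 0.333). Replicates of the same condition differed by about as much. As a share of their length, the flanks lay in peaks to 5.84%, 4.48%, 5.99% and 5.69% in the 4 libraries, against 1.07% to 1.54% of the genome and 0.433% to 0.551% of chromosome X. The flanks hold starts of several genes, and the flanks of other genes were not measured, so this share is not shown to be particular to Foxp3.

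The peaks were unevenly spread. The first 35807 bases of the upstream flank held none, and the nearest region before them ended 91340 bases before the outermost upstream region. Then 5 regions followed between 14193 and 4750 bases before the start, and 3749 bases up to the promoter window held none. Downstream the first peak lay 3738 bases past the gene end, and the last 6306 bases were empty. Just past the 50 kb limit, a peak at chrX:7645447-7645667 in iTreg+PBS replicate 1 missed it by 204 bases, with peaks of both IL-4 libraries at the same place. Inside the gene and promoter, which were not counted, 5 regions were called, of which 1, at CNS2, was in all 4 libraries, 2 in 3 libraries and 2 in a single library. Of these, 1 reached past the gene end by up to 390 bases.

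Apart from Foxp3, 9 genes of GENCODE had a start site in the flanks. Ppp1r3f, Flicr, Ccdc22, its overlapping transcript Gm36995 and Syp had a peak at a start in all 4 libraries (from 1000 bases before to 500 after it), as had the upstream start of Foxp3. The region 5.2 kb upstream served Ppp1r3f, Flicr and Foxp3 alike, and the region 25.8 kb downstream served Ccdc22 and Gm36995. Further starts of Ppp1r3f at 7564257 and 7564288 held no peak, and that at 7572843 held 1 with IL-4 only. Cacna1f, the pseudogenes Gm14394 and Gm14395 and the small RNA gene Gm23082 had none in any library. At the level of all protein-coding genes, 60.1% to 63.8% had such a peak in a library. The factors known to act on Foxp3 through its noncoding elements or in this culture, 16 in all, had a start peak in all 4 libraries. They include Satb1 and Kmt2d, which act at CNS0, Stat5a and Stat5b, which act downstream of IL-2, Smad3, downstream of TGF-β1, and Stat6 and Gata3, which act downstream of IL-4. A peak at a start site says nothing of the level of the factor.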

How the data were processed

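ATAC-seq peak lists of 4 libraries, 2 iTreg+PBS and 2 iTreg+IL-4, grouped by their labels, were analysed. Per the study's methods, the authors sequenced on BGISEQ-500, mapped read pairs to mm10 with Bowtie2 2.2.5, kept mapped pairs and called peaks per library with MACS2 2.1.2. A correction for transposase offset and the removal of duplicates are not given in the sources used here, and their effect on bounds and heights was not tested. The lists have no column names. The deposited values were taken to be −log10 q-values, with a lowest value of 1.31 in each list, and pileup signal (height), not scaled for depth. No interval was given, since the depth is unknown. Positions count from 1.

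Lists were read with Python 3.11.15 and pandas 2.3.3, and sequence with pysam 0.24.0 from GRCm38. Genes came from RefSeq and GENCODE M21. Conditions were compared over libraries by the exact two-sided permutation test. The p-values give the share of relabellings of these libraries with a difference at least as large, so they do not extend beyond these pools. Every flank region was named. Of the marker genes looked up, 1 is not reported here. The counting was tested on simulated lists. Members, lists, motifs and tests were chosen with earlier results of these data known. Alternatives changed list length, overlap, flank width, gene record, promoter, window and ranking value, left out each library, or blocked on the replicate number.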

Additional observations from a re-analysis of the deposited data

How the results depend on the processing

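Of 106 alternative values, 3 reversed, and 7 counts moved by over 1.5 times. The other 96 did not reverse and stayed on the same side of the threshold, which no p over 4 libraries can pass, but did not always keep the size: the difference in the number of peaks was 0 without iTreg+PBS replicate 2, the CNS0 window differed by 441.5 bases in the upper 50% of the lists, the number of peaks by 2.5 with flanks of double width, and the mean rank by −0.413 points among regions called in all 4 libraries. Keeping the upper 50% of each list left the CNS0 peak in 2 libraries (both with IL-4) and 4 regions called in all 4 libraries. Regions called only with IL-4 were 0 with lists of equal length by −log10 q and 0 with the GENCODE record of Foxp3, which also turned the difference in the number of peaks to −0.5. With flanks of double width, 12 regions were called in all 4 libraries. Ranked by width, the difference of CNS0 was −3.57 points with overlap (exact permutation test, p = 0.667), and 2 regions had both IL-4 ranks above both PBS ranks, and among regions called in all 4 libraries the 1 such region was not CNS0 but the one 14 kb upstream. With 1 library left out, the difference ranged from −4 to 1347 bases over the flanks, from 0 to 1 peaks, from 21 to 64 bases in the CNS0 window, from −12.8 to −9.34 points for the rank of CNS0, from −8.48 to 0.343 points for the mean rank, and from 0.0956 to 0.197 for the height of CNS0 over the Ppp1r3f start peak. Regions called only without IL-4 then ranged from 0 to 1, and CNS0 was called in 3 of 3 libraries each time. The values from iTreg+PBS replicate 2, the shortest list, decided both reversals over libraries, and the cause was not tested. The replicate block left the differences at 671.5 bases, 0.5 peaks, 42.5 bases, −11.1 and −4.07 points, with a smallest p of 0.5 in the exact sign-flip test. Deviations of same-numbered libraries correlated at r = 0.452 over 47767 regions, but 2 pairs do not show a shared batch, so the numbers were not taken to pair the samples. The alternatives on single regions and on the height of CNS0 over other peaks were added after seeing the data. Depth is unknown, so a missing call is not a closed site.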
